A study of Mus musculus with 32 samples.

Results

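Levels of 9 synaptic vesicle release genes were examined in frontal cortex RNA profiled by 3'Pool-seq at 4 amounts of starting RNA. The genes were *Snap25*, *Stx1a*, *Vamp2*, *Syt1*, *Cplx1*, *Syn1*, *Syn2*, *Syp* and *Sv2a*, taken by symbol from a table of 33000 genes, and each symbol matched 1 row. The rule for taking them used no measured value, but the list was chosen with earlier results of these data known. The RNA came from mice at 3 months of age on a C57BL/6 background, either wild-type (WT) or homozygous for the GFAP-IL6 transgene, in which the promoter of the astrocyte gene *Gfap* drives the cytokine interleukin 6. No other allele or agent was named for either genotype. Reverse transcription reactions received 50, 10, 1 or 0.5 ng of total RNA, which made 8 groups of 4 libraries, 32 in all. Which libraries shared an animal was not stated, so p-values measure the spread between these libraries, which may be partly technical.

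Neurons release transmitter when vesicles that are docked at the presynaptic membrane fuse with it in response to calcium. Fusion is driven by the SNARE proteins, with *Vamp2* (synaptobrevin) on the vesicle and *Stx1a* (syntaxin) and *Snap25* on the plasma membrane. *Syt1* (synaptotagmin) is the calcium sensor, and *Cplx1* (complexin) binds the assembled SNARE complex and tunes fusion. *Syn1* and *Syn2* (synapsins) tether vesicles in the reserve pool, while *Syp* (synaptophysin) and *Sv2a*, the binding site of the antiseizure drug levetiracetam, are membrane proteins of the vesicle itself. Transcripts of these genes are abundant in cortical neurons.

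Libraries at 50 ng held 1071895 to 7538356 counts and those at 10 ng 1064514 to 9840302. Depth was lower with 1 ng, at 261378 to 2800270 counts, and with 0.5 ng, at 295022 to 2722389. Replicate 2 was the shallowest library and replicate 4 the deepest in 8 of 8 groups. Levels are given as CPM, the count of a gene scaled to a library total of 1000000. A floor of 3 counts corresponded to 0.305 to 11.5 CPM. Every member was above the floor in every library, with 13 counts as the lowest value (*Syp* at 1 ng). The reads carried no molecular identifiers, so floors cover counting error only. Defining markers of neurons were present as labelled, with 10 of 10 listed neuron markers above 0 at every input. In whole tissue, fewer neurons and less RNA per neuron cannot be told apart.

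Because the reads in this assay come from the end of the transcript next to the poly(A) tail, the annotated 3' ends of the members are shown first. The last 30 bases of the principal transcript of each gene are given 5' to 3' on the strand of the gene (GENCODE vM21, build GRCm38), with the poly(A) signal AATAAA, or else ATTAAA, in capitals.
Snap25, chr2:136782399-136782428, plus strand: ttATTAAAaattatagatcacagccaccga
Stx1a, chr5:135051071-135051100, plus strand: ttttatgtagAATAAAcatttgtatctgta
Vamp2, chr11:69092355-69092384, plus strand: aatgtacAATAAAcgtgtaatgagtaacca
Syt1, chr10:108497650-108497679, minus strand: actcAATAAAaatgttttatttcctgttga
Cplx1, chr5:108518554-108518583, minus strand: acagccAATAAAcagtgatttcacaccgtg
Syn1, chrX:20860515-20860544, minus strand: ggaagcaaAATAAAcaagcaaaggcccagc
Syn2, chr6:115281977-115282006, plus strand: aagcagcagctttaaccagcatttgattca
Syp, chrX:7653227-7653256, plus strand: ccccccAATAAActcctcaactatctagtc
Sv2a, chr3:96195492-96195521, plus strand: AATAAAgggttcgaacccttaaaacccaaa

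Searching the transcript strand alone, 7 of the 9 ends held AATAAA, *Snap25* held ATTAAA and *Syn2* held neither. The signal started between 20 bases (*Stx1a*) and 30 bases (*Sv2a*) from the end. Among the principal transcripts of 21894 protein-coding genes, 50.8% held AATAAA in the same window, 11.3% held ATTAAA but not AATAAA, and 62.1% held either. These are matches of letters in the annotation. The counts are per gene and do not show which end was used.

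Exons of 3 members overlapped a neighbour on the opposite strand, and whether counting used the strand was not stated. *Syn1* shared 9 exonic bases with *Araf*, a kinase gene measured at 201 ± 37.7 CPM (SD, n = 8) at 50 ng, at the 3' end itself, so reads of the pair may be uncertain there. *Syn2* shared 90 bases with *Timp4* (38.1 ± 7.25 CPM), 29801 bases away from its own 3' end. *Syp* shared 875 bases with the antisense gene *Gm14703*, which was at 0.0390 ± 0.0732 CPM. That overlap also reached the 3' end itself, so the counts of *Syp* may be uncertain too. The other 6 members had no such neighbour within 1000 bases of their 3' end.

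The 9 members spanned a wide range of levels at 50 ng. *Snap25* had the highest CPM at 4032 ± 463 (SD, n = 8 libraries of both genotypes) and ranked 14 among all genes in the table. *Syt1* followed at 1529 ± 148 CPM, then *Cplx1* at 500.0 ± 34.3, *Syn2* at 437 ± 27.7, *Sv2a* at 297 ± 63.1, *Syn1* at 218 ± 39.8, *Vamp2* at 170.5 ± 22.8, *Stx1a* at 113 ± 12 and *Syp* at 54.4 ± 11.2. A transcript gives about 1 tag at its 3' end in this assay, so CPM was not divided by length. Dividing mean CPM by the authors' gene length in kilobases left every member at the same position, from 1805 CPM per kb for *Snap25* to 21.0 for *Syp*. The 8 libraries of *Cplx1* and *Syn2* overlapped in range, as did those of *Syn2* and *Sv2a*, of *Sv2a* and *Syn1*, and of *Syn1* and *Vamp2*. The ranges of *Snap25*, *Syt1* and *Cplx1* did not overlap, nor did those of *Vamp2*, *Stx1a* and *Syp*.

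The order of the means was kept at 10 and 1 ng, and at 0.5 ng it differed at 1 step, where mean CPM was 285 ± 93.1 for *Syn1* and 231 ± 57.6 for *Sv2a*. *Syn1* was above *Sv2a* in 5 of 8 libraries there, and the ranges overlapped. At 1 ng, *Syn2* was above *Sv2a* and *Vamp2* above *Stx1a* in 4 of 8 libraries each, so those steps do not differ beyond their spread. Together the members took 0.735% ± 0.0368 of all counts with 50 ng of RNA (SD, n = 8). Their share was 0.719% ± 0.0307 with 10 ng, 0.680% ± 0.0572 with 1 ng, and with 0.5 ng it was 0.732% ± 0.0715. *Snap25* alone supplied 54.7% ± 4.16 of the members' counts at 50 ng and 54.8% ± 3.86 at 0.5 ng. The summed share therefore mostly follows *Snap25*.

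**Figure D1:**
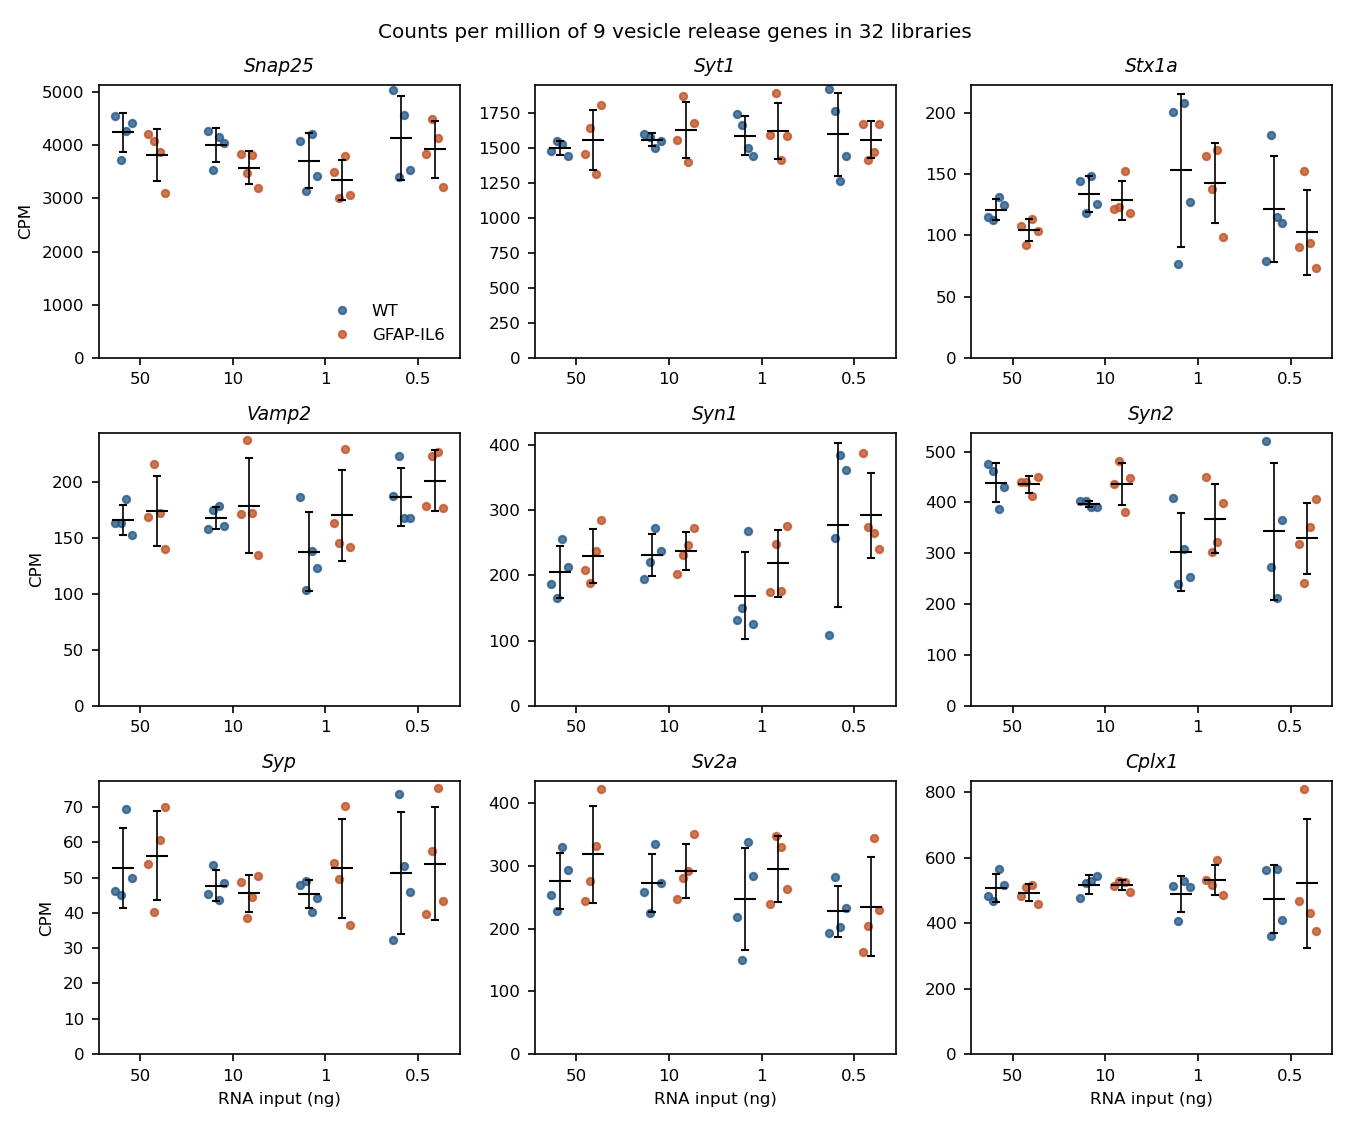
CPM of each member in every library by RNA input (ng), with points for the 4 libraries of each genotype, a dash for the mean and bars for the SD. The genotypes overlap in every panel at every input, and the points of *Stx1a*, *Syn1* and *Syn2* lie further apart at 1 and 0.5 ng than at 50 and 10 ng.

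The first comparison asked how the transgenic cortex differed from WT at each input. Among the SNARE genes, *Snap25* at 50 ng was at 4561, 3726, 4269 and 4428 CPM in WT replicates 1 to 4 and at 4209, 4079, 3878 and 3107 in the GFAP-IL6 replicates. GFAP-IL6 replicate 4 was the lowest library, and the others lay within the WT range. Its log2 fold change was -0.19 ± 0.16 (SE), with a 95% interval of -0.51 to 0.13 and an adjusted p of 0.837 by edgeR's quasi-likelihood test with Benjamini-Hochberg adjustment over all genes. The same estimate was -0.08 without GFAP-IL6 replicate 4. At 10 ng *Snap25* was at 4265, 3542, 4163 and 4043 CPM in WT and at 3833, 3472, 3824 and 3188 in GFAP-IL6. Here 2 GFAP-IL6 libraries lay below all WT libraries, and the log2 fold change was -0.19 ± 0.11 (SE; interval -0.42 to 0.03; edgeR adjusted p = 0.721).

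*Stx1a* at 50 ng was at 115, 113, 131 and 125 CPM in WT and at 108, 92.4, 113 and 104 in GFAP-IL6. Of the GFAP-IL6 libraries, 3 were below every WT library and the other fell inside the WT range. Its log2 fold change of -0.24 ± 0.16 (SE; interval -0.57 to 0.08; edgeR adjusted p = 0.835) was the lowest among the members at this input, and it was -0.09 at 10 ng. *Vamp2* was at 163, 164, 185 and 153 CPM in WT and at 169, 216, 172 and 141 in GFAP-IL6, so that the highest and the lowest library both carried the transgene. Its log2 fold change was 0.03 (interval -0.32 to 0.37). None of the SNARE genes differed beyond the spread between libraries.

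For the calcium sensor *Syt1*, WT libraries at 50 ng were at 1478, 1553, 1528 and 1444 CPM and GFAP-IL6 libraries at 1457, 1643, 1320 and 1813. The WT libraries were close together, with an SD of 49.0 CPM (n = 4), and the GFAP-IL6 libraries reached past them on both sides with an SD of 215. The log2 fold change was 0.02 (interval -0.30 to 0.34). *Cplx1* was at 482, 466, 565 and 516 CPM in WT and at 484, 510, 516 and 460 in GFAP-IL6, with a log2 fold change of -0.08 (interval -0.39 to 0.23).

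Among the synapsins, *Syn1* at 50 ng was at 187, 165, 257 and 213 CPM in WT and at 209, 188, 237 and 285 in GFAP-IL6. *Syn2* was at 476, 462, 388 and 431 CPM in WT and at 440, 439, 412 and 450 in GFAP-IL6, all inside the WT range. Log2 fold changes were 0.13 for *Syn1* (interval -0.23 to 0.49) and -0.05 for *Syn2* (interval -0.37 to 0.27). The vesicle membrane gene *Syp* was at 46.2, 45.1, 69.3 and 50.01 CPM in WT and at 53.9, 40.1, 60.6 and 70.1 in GFAP-IL6. *Sv2a* was at 253, 227, 330 and 293 CPM in WT and at 244, 275, 331 and 422 in GFAP-IL6, where replicate 4 stood highest. Its log2 fold change of 0.17 ± 0.18 (SE; interval -0.20 to 0.54; edgeR adjusted p = 0.855) was the highest among the members.

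A gene was counted as differentially expressed where its log2 fold change was beyond 1 in either direction and its adjusted p was under 0.05. None of the 9 members passed at any input. Over all genes tested, 0.28% passed with 50 ng, 0.266% with 10 ng, 0.0323% with 1 ng and 0.0117% with 0.5 ng. These shares depend on the fit, with 3 to 80 genes passing at 50 ng and 1 to 616 at 0.5 ng under the alternatives, against 33 and 1 here, and 0 of 9 is read no further. Without adjustment, no member had a p under 0.05 at any input by edgeR, nor by DESeq2. GFAP-IL6 and WT libraries overlapped for every member at every input. Of all genes tested, 3.33%, 4.1%, 3.07% and 2.81% did not overlap at 50, 10, 1 and 0.5 ng. The members' median log2 fold change at 50 ng was 0.02, against -0.0034 over all genes. Their median absolute change was 0.08, against 0.19 over all genes. The members' estimates were also more precise, with a median SE of 0.159 against 0.237 over all genes. Genes of like abundance were not set beside them here, so the smaller change is read no further.

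The size of change that these libraries allow differed with input. All 9 intervals lay within 1 of 0 on the log2 scale at 50 and 10 ng, reaching from -0.57 to 0.54 and from -0.46 to 0.37. At 1 ng, 8 of 9 did so and at 0.5 ng, 7 of 9, with *Syp* from -1.17 to 1.25 and *Stx1a* from -1.13 to 0.54 there. *Snap25* and *Stx1a* had a log2 fold change below 0 at 4 of 4 inputs, while *Vamp2*, *Syn1* and *Sv2a* were above 0 at 4 of 4. Each of these genes changed sign at 1 or more inputs under the alternatives, as *Sv2a* did in 4 of 15 at 0.5 ng. Since same-numbered libraries may share an animal, the inputs are not independent, and these signs carry no test. For *Snap25* the estimate was -0.16 at 1 ng and -0.10 at 0.5 ng, where leaving out WT replicate 1 gave 0.01.

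**Figure D2:**
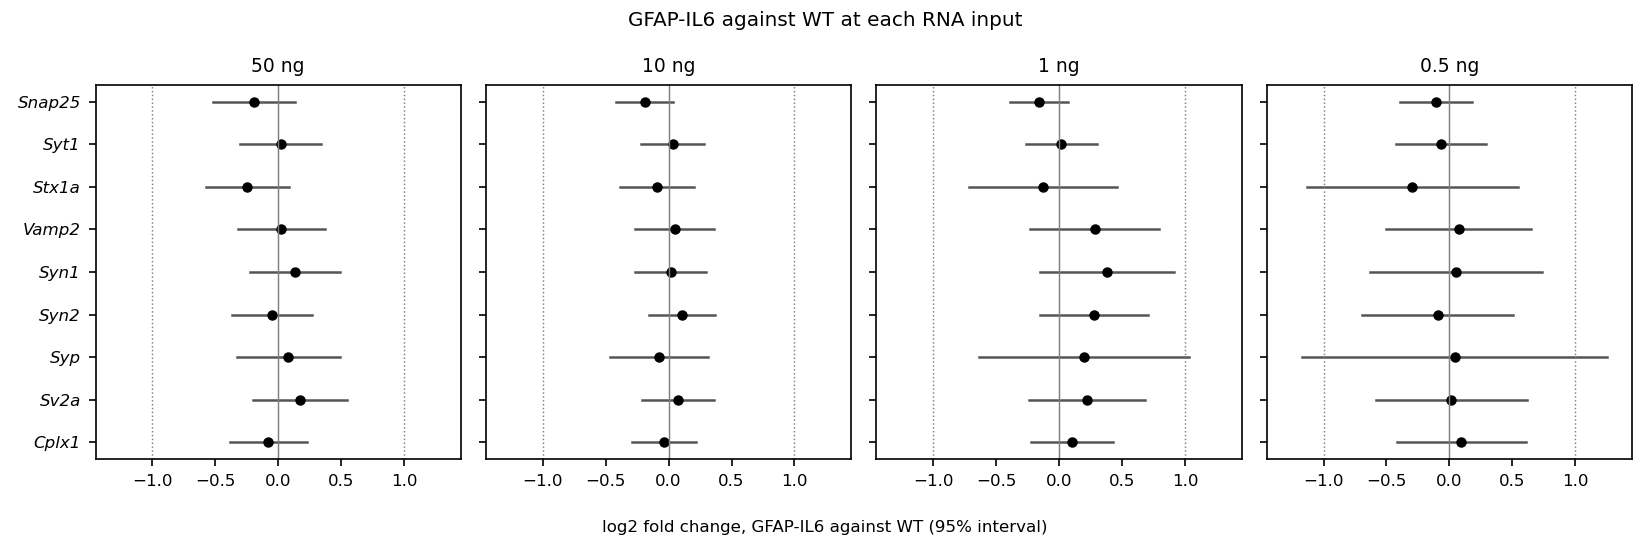
Log2 fold change of each member, GFAP-IL6 against WT, at each RNA input, with a dot for the edgeR estimate and a line for its 95% interval. Every interval includes 0 (solid line), and those of *Stx1a* and *Syp* widen past 1 or -1 (dotted lines) at 0.5 ng.

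The genotype difference in the same libraries was visible in some genes of astrocytes and microglia. At 50 ng, 1 of 8 astrocyte and 3 of 10 microglial markers passed. Of the same lists, 6 and 9 had a log2 fold change above 0. *Gfap*, the intermediate filament of astrocytes and the source of the transgene promoter, was at 11.3 ± 2.46 CPM in WT and 53.2 ± 19.6 in GFAP-IL6 with 50 ng of RNA (SD over 4 libraries). Its log2 fold change there was 2.20 (edgeR adjusted p = 0.000113). The microglial genes *Ctss* (a lysosomal protease), *C1qb* and *C1qc* (complement) rose as well, by 1.5, 1.10 and 1.04 on the log2 scale with 50 ng and by 1.75, 1.11 and 1.12 with 10 ng. These 4 were the genes of the cell type lists that passed at 50 and 10 ng. With 1 ng and with 0.5 ng, 0 of 8 astrocyte and 1 of 10 microglial markers passed. The 10 neuron markers had summed levels of 3174 to 3336 CPM in WT and of 3138 to 4049 in GFAP-IL6 at 50 ng, and 0 of 10 passed. Within this sum *Camk2a* was at 196 ± 8.25 CPM in WT and 333 ± 278 in GFAP-IL6 (SD over 4 libraries). Of the 10 markers, 6 had a log2 fold change above 0. Summed microglial markers ran from 715 to 806 CPM in WT and from 873 to 1921 in GFAP-IL6 (10 genes, none at 0 throughout). Summed levels of 8 astrocyte markers were 2851 to 3396 CPM in WT and 3145 to 4192 in GFAP-IL6. Within this sum *Slc1a2* was at 965 ± 50.7 CPM in WT and 1443 ± 779 in GFAP-IL6 (SD over 4 libraries). Markers of striatum, which borders the dissected cortex, summed to 228 to 392 CPM in WT and 147 to 237 in GFAP-IL6 (7 genes, 1 of them at 0 throughout), and 0 of the 5 tested passed. Of these 5, 0 were above 0, their median log2 fold change was -0.56 and 3 had an unadjusted p under 0.05. Of 8 oligodendrocyte and 5 endothelial markers tested, 0 passed, with medians of -0.13 and 0.46 and an unadjusted p under 0.05 for 1 and 2. The part of these marker levels in the members' CPM was not tested.

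Other genes of the release machinery were taken from a list of 70, including further synaptotagmins, complexins, active zone and endocytosis genes. Of the 67 tested at 50 and 10 ng, none passed in either direction at any input. At 50 ng 41 of 67 were above 0, with a median log2 fold change of 0.05, and 4 had an unadjusted p under 0.05, against 5.63% of all genes. *Syt11*, a synaptotagmin that does not bind calcium and one of the most abundant genes of the list, was at 717 ± 127 CPM at 50 ng (SD, n = 8). Its log2 fold changes were 0.08, 0.00283, 0.18 and -0.07 from the largest to the smallest input, and every interval included 0.

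The second comparison set each lower input against 50 ng, with genotype in the fit and 8 libraries at each input. Libraries of the same number were treated as independent here, and fits with a replicate block are given at the end. No member passed both thresholds. The share of all genes tested that passed was 0% with 10 ng, 0.257% with 1 ng and 0.763% with 0.5 ng. The largest member estimate was for *Stx1a* at 1 ng. Its 8 libraries had a lowest, median and highest CPM of 92.4, 113 and 131 at 50 ng and of 76.4, 151 and 208 at 1 ng. The 1 ng libraries thus reached past the 50 ng libraries on both sides, and the log2 fold change was 0.47 ± 0.16 (SE; interval 0.14 to 0.79; edgeR adjusted p = 0.185). It was 0.25 at 10 ng (adjusted p = 0.9997 by edgeR) and 0.02 at 0.5 ng, so no steady course with input was seen.

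*Syn2* was lower at both small inputs by its estimates. Its lowest, median and highest CPM were 388, 440 and 476 at 50 ng, 240, 316 and 450 at 1 ng, and 213, 335 and 521 at 0.5 ng. Log2 fold changes were -0.32 (interval -0.57 to -0.06; edgeR adjusted p = 0.301) and -0.31 (interval -0.63 to 0.02; edgeR adjusted p = 0.476). *Syn1* moved the other way at 0.5 ng, from a median of 211 CPM at 50 ng to 270 CPM, with a log2 fold change of 0.45 (interval 0.06 to 0.85; edgeR adjusted p = 0.337). Unadjusted p-values were under 0.05 for *Stx1a* at 10 ng, for *Stx1a* and *Syn2* at 1 ng and for *Syn1* at 0.5 ng, that is for 1, 2 and 1 of 9 members. The shares over all genes were 4.36%, 11.2% and 11.7%.

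*Snap25* and *Syt1*, the most abundant members, were held within narrow intervals at every input. The log2 difference from 50 ng was -0.07, -0.13 and 0.06 for *Snap25* and 0.09, 0.13 and 0.11 for *Syt1* at 10, 1 and 0.5 ng. The widest of these 6 intervals was -0.12 to 0.34, for *Syt1* at 0.5 ng. *Cplx1* differed by 0.07, 0.09 and 0.04, while *Vamp2*, *Syp* and *Sv2a* had intervals that included 0 at each input. Of the 67 other release machinery genes, none passed both thresholds, and *Bin1*, an endocytosis adaptor, had the lowest adjusted p in the list at 1 ng (log2 fold change 0.48, edgeR adjusted p = 0.0350). Its log2 fold change was 0.03 at 10 ng and -0.32 at 0.5 ng.

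**Figure D3:**
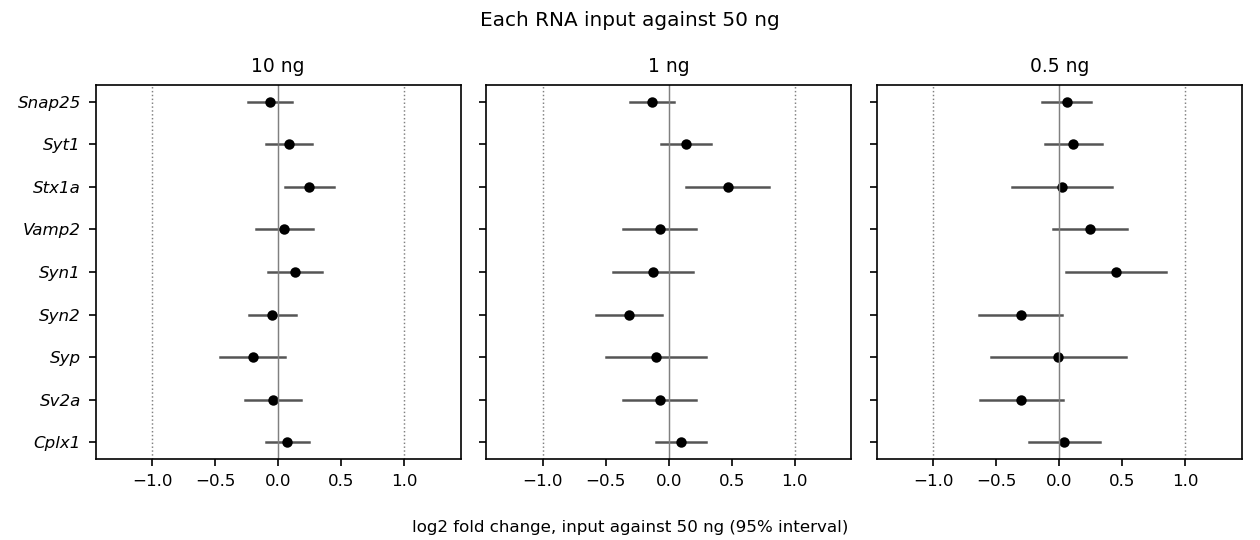
Log2 fold change of each member at 10, 1 and 0.5 ng against 50 ng over both genotypes, with a dot for the edgeR estimate and a line for its 95% interval. Intervals that leave out 0 are those of *Stx1a* at 10 and 1 ng, *Syn2* at 1 ng and *Syn1* at 0.5 ng, and none of these passed after adjustment.

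Whether the genotype difference itself changed with input was tested as an interaction with 50 ng. No member passed an adjusted p under 0.05 or had an unadjusted p under 0.05 by edgeR or DESeq2. By edgeR 0% of all genes passed at each lower input, and by DESeq2 0, 5 and 161 genes passed at 10, 1 and 0.5 ng. Interaction estimates of the members ran from -0.16 to 0.14 at 10 ng, from -0.03 to 0.30 at 1 ng and from -0.19 to 0.13 at 0.5 ng. At the lowest input the interval of *Syp* ran from -1.14 to 1.04, so an interaction of moderate size was not detectable for this gene. The members' median SE was 0.328 there, against 0.199 at 10 ng, so smaller interactions could be missed in the others too.

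For 8 of 9 members the spread between libraries was larger at 0.5 ng than at 50 ng. The SD of log2(CPM + 1) within a genotype, pooled over both, had a median over the 9 members of 0.167 with 50 ng, 0.148 with 10 ng, 0.309 with 1 ng and 0.413 with 0.5 ng. For *Snap25* it was 0.167, 0.123, 0.183 and 0.244. For *Syt1* it was 0.145, 0.128, 0.152 and 0.212. *Cplx1* was the tightest at 10 ng (0.0669) and stayed at 0.149 at 1 ng before reaching 0.413 at 0.5 ng, where GFAP-IL6 replicate 2 stood at 810 CPM. *Syn1* widened from 0.263 to 0.629 and *Syn2* from 0.1001 to 0.452 between 50 and 0.5 ng. *Stx1a* went from 0.114 at 50 ng to 0.538 at 1 ng. *Vamp2* was an exception at the lowest input, with 0.195 at 0.5 ng against 0.197 at 50 ng.

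Counting error alone would give a median SD of 0.0543, 0.0514, 0.104 and 0.0972 at the same inputs, lower than observed at each. Thinning every library to the lowest total gave median SDs of 0.200, 0.174, 0.362 and 0.384. Thinning equalises counts and not the number of molecules behind them. The rise was shared by other genes. Over the 3499 genes with a mean CPM above that of the lowest member the median SD was 0.262, 0.224, 0.419 and 0.600, and over all 13392 genes with a mean CPM above 1 it was 0.352, 0.374, 0.957 and 1.30.

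**Figure D4:**
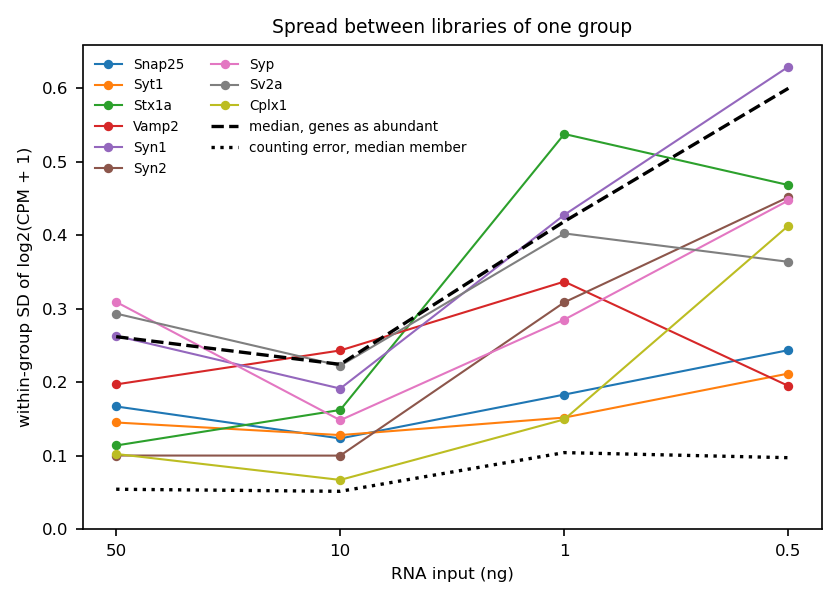
Within-group SD of log2(CPM + 1) for each member by RNA input (ng), with the median of the 3499 genes at least as abundant as the lowest member (dashed) and the counting error of the median member (dotted). Most members lie higher at 1 and 0.5 ng than at 50 and 10 ng, and all lie above the dotted line at 1 and 0.5 ng.

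Deviations of single libraries from their group mean recurred between 50 and 10 ng in libraries of the same number. For *Sv2a*, GFAP-IL6 replicate 4 was the highest of its group at both inputs (422 and 350 CPM) and replicate 1 the lowest (244 and 247 CPM), and WT replicate 3 was the highest (330 and 335 CPM) and replicate 2 the lowest (227 and 225 CPM). Its deviations correlated with Pearson's r = 0.943 and Spearman's rho = 0.929 over 8 libraries, with two-sided exact permutation p-values of 0.00174, the smallest that the 576 pairings within genotypes can give, and 0.00347. Without the 2 libraries farthest from the median at 50 ng, r was 0.915. For *Vamp2*, GFAP-IL6 replicate 2 was the highest (216 and 238 CPM) and replicate 4 the lowest (141 and 135 CPM). Its r was 0.959 and its rho 0.905, with exact permutation p-values of 0.00868 and 0.0104, and r was 0.745 without the 2 farthest libraries.

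The correlation was computed for 9 members. For *Snap25* r was 0.851 (rho = 0.690; exact permutation p-values 0.0295 and 0.111), but it fell to 0.0130 without the 2 farthest libraries, so it rests on those. *Syn1* had an r of 0.779 (rho = 0.762; exact permutation p-values 0.0451 and 0.0660), and 0.362 without the 2 farthest. *Syn2* had an r of 0.449 (rho = 0.619; exact permutation p-values 0.0382 and 0.0747). For *Syt1*, *Stx1a*, *Cplx1* and *Syp*, r was 0.733, 0.534, 0.589 and 0.270, rho was 0.786, 0.548, 0.619 and 0.0714, and the exact permutation p-values of r were 0.260, 0.186, 0.219 and 0.573. The median r of the members was 0.733, against 0.647 for the 3499 genes at least as abundant and 0.372 for all 13392. With 1 ng in place of 10 ng the members' median r was 0.490, and with 0.5 ng it was 0.252. Same-numbered libraries share whatever the number stands for, and they also share their place in the order of depth.

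**Figure D5:**
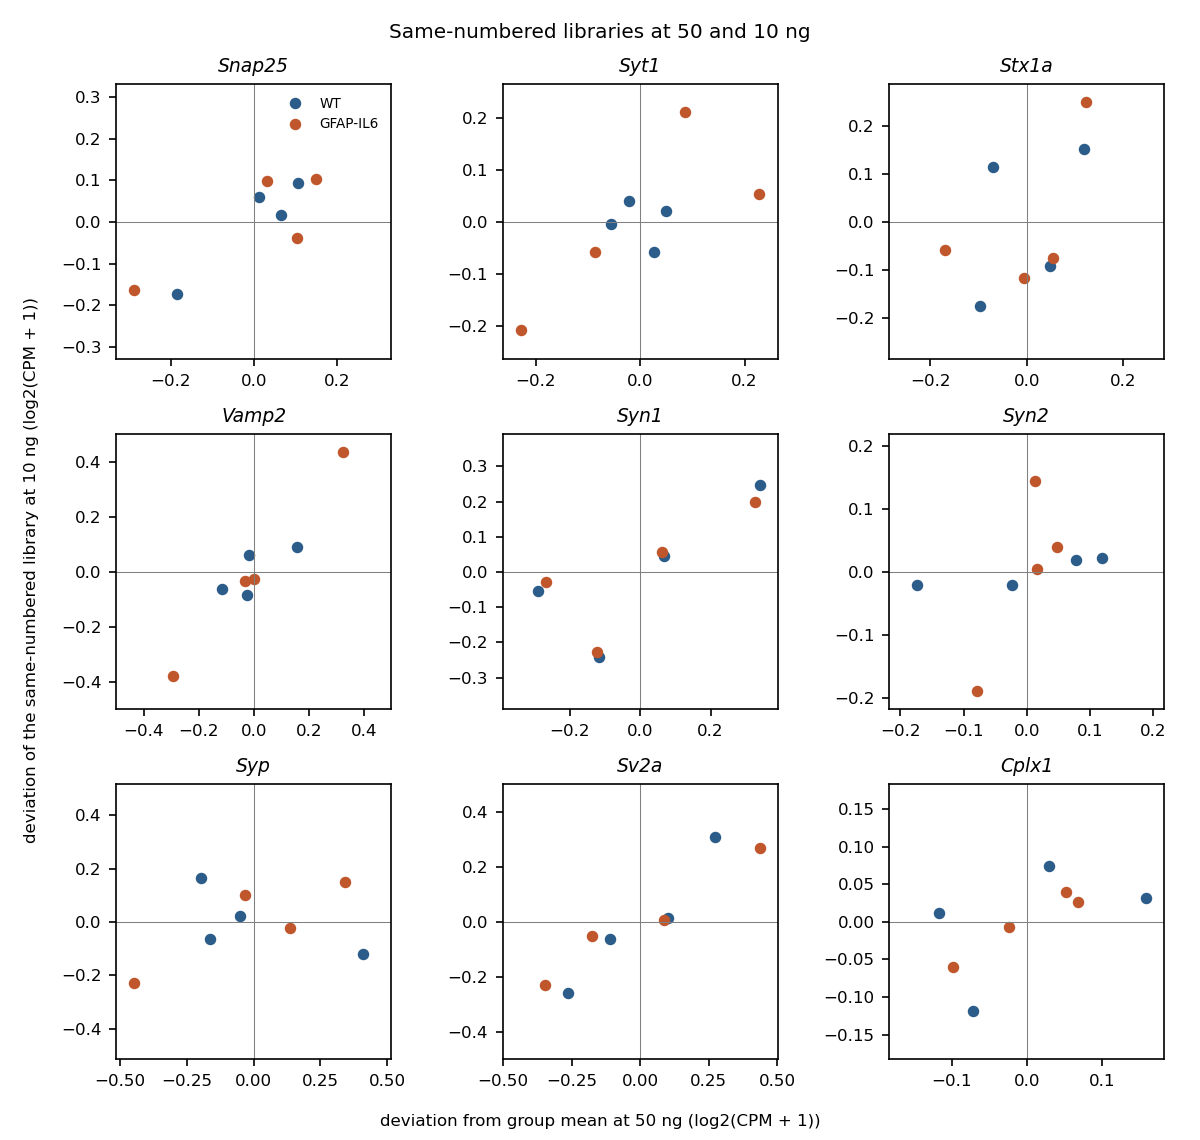
Deviation of each library from its group mean, in log2(CPM + 1), at 50 ng (horizontal) and in the same-numbered library at 10 ng (vertical), for each member and genotype. Points of *Sv2a*, *Vamp2* and *Syn1* run along the rising diagonal, while those of *Syp* do not.

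How far the members varied together differed with input. Over the 36 pairs of members the median within-group r was -0.04 with 50 ng and -0.11 with 10 ng (8 libraries each), and 18 and 11 pairs were above 0. With 1 ng it was 0.257, 23 pairs being above 0, and with 0.5 ng it was -0.11, 15 being above 0. At 1 ng WT replicate 2, with 366403 counts, was the lowest WT library for *Snap25*, *Stx1a*, *Vamp2*, *Syn2*, *Sv2a* and *Cplx1*. It was not the lowest for *Syt1*, *Syn1* or *Syp*, and its part in the r values was not tested. For pairs of the 3499 genes at least as abundant, the median was 0.07 with 50 and 10 ng, 0.03 with 1 ng and 0.01 with 0.5 ng. Single pairs differed widely: *Syn1* and *Sv2a* had an r of 0.922 with 50 ng, 0.839 with 10 ng, 0.396 with 1 ng and -0.03 with 0.5 ng. *Syn1* and *Syp* had 0.935 at 50 ng and -0.06 at 10 ng. Over the 16 libraries at 50 and 10 ng, *Syn1* and *Sv2a* followed the mean of the other 8 members with r of 0.649 and 0.503, and *Syn2* and *Snap25* ran against it with -0.48 and -0.39. These are descriptions over libraries that share numbers and depth.

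The genes whose profile was most like the members' mean log2 profile over those 16 libraries were drawn from 3537 candidates with a mean CPM of at least 50. They were *Nat8l*, the enzyme that makes N-acetylaspartate (r = 0.902), *Clstn1*, a calsyntenin (0.880), and *Nrgn*, the postsynaptic protein neurogranin (0.864). *Ube2d2a*, a ubiquitin-conjugating enzyme (0.852), and *Ptprs*, a receptor phosphatase (0.843), came next. As the highest of 3537, these r values are high by selection and carry no test. Not every member followed that mean profile, so likeness to it is not likeness to each member.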

How the data were processed

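Libraries were made by 3'Pool-seq, in which an indexed oligo-dT primer tags each RNA sample before pooling. Single-end reads were aligned by the authors with STAR, reads with a unique position were assigned to GENCODE genes by featureCounts, and the authors deposited raw counts for 33000 genes. No column of the table lacked a library (0 unmatched). The submitters' notes name STAR 2.4. Members and gene lists were chosen with earlier results of these data known. Named genes were the 9 members, the other release genes called in a comparison plus the 3 most abundant, cell type genes called at 50 or 10 ng, the 5 most alike profiles, and neighbours that overlap a member. *Bin1*, *Camk2a* and *Slc1a2* were named after their values were seen. Some genes named by this rule are not reported here.

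Counts of all genes were fitted in R 4.3.3 with edgeR 4.0.16 (TMM, filterByExpr, quasi-likelihood test), without covariates for genotype and with genotype for input. Intervals used the total degrees of freedom of the quasi-likelihood fit, residual plus prior. Levels for spread were log2(CPM + 1). Alternatives were the DESeq2 test, its size factors in edgeR, no filter, binomial thinning to 261378 counts and no mitochondrial genes. Others were another call rule, a replicate block, a fit of all 32 libraries and leaving out each replicate of each genotype. In input and interaction fits a replicate was left out at both inputs. Groups came from the sample titles.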

Additional observations from a re-analysis of the deposited data

Results flagged for a closer look

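Each member was examined for a library standing apart within its group of 4, by the gap to the nearest library as a share of the group's range, in 72 groups, of which chance flags about 1 in 20. There were 2 such libraries. *Stx1a* in GFAP-IL6 replicate 3 at 10 ng was at 152 CPM (768 counts), while the other 3 libraries of its group lay between 118 and 123 CPM, a gap of 0.857 of the range. *Cplx1* in WT replicate 2 at 1 ng was at 407 CPM (149 counts), against 509 to 528 CPM in the others, a gap of 0.839 of the range.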

How the results depend on the processing

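No member was counted as differentially expressed by genotype or input, or as an interaction, under any alternative (0 of 9 in each). These were 7 other settings, another call rule, and leaving out each of the 8 combinations of genotype and replicate number. In input and interaction fits, leaving out a combination removed its library at both inputs. Of 1350 member estimates from these alternatives, 1235 kept their sign and 115 did not, and the lowest adjusted p of any was 0.0565 (*Stx1a* at 1 ng against 50 ng). The cause was not tested. Calls by genotype over all genes ran from 3 (1 fit of all 32 libraries) to 80 (no filter) at 50 ng and from 1 to 616 (1 fit of all 32 libraries) at 0.5 ng. The DESeq2 test called 44, 47, 13 and 22 of all genes by genotype at 50, 10, 1 and 0.5 ng (33, 32, 3 and 1 by edgeR), 1, 164 and 477 by input at 10, 1 and 0.5 ng (0, 29 and 87), and 0, 5 and 161 as interactions (0 at each). Without mitochondrial genes in the total, the members' share was 0.871%, 0.855%, 0.806% and 0.866% at 50, 10, 1 and 0.5 ng, since those genes left the denominator.

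Leaving out 1 library at a time, the median spread ran from 0.125 to 0.183 at 50 ng, from 0.125 to 0.162 at 10 ng, from 0.280 to 0.331 at 1 ng and from 0.348 to 0.447 at 0.5 ng. Thinning, another pseudocount (0.1) and TMM scaling moved it by less than 1.5 times.

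With the replicate number as a block, 0 of 9 members were called in each comparison, though 3 of 9 had an unadjusted p under 0.05 in each input comparison and 1 of 9 by genotype at 10 and at 1 ng. Under the same block the shares of all genes were 10.2%, 13% and 17% for 10, 1 and 0.5 ng against 50 ng, and 10.8% and 3.79% by genotype at 10 and 1 ng. Calls over all genes by genotype went under the block from 33 to 36 at 50 ng, from 32 to 47 at 10 ng and from 3 to 6 at 1 ng. At 0.5 ng they stayed at 1. Against 50 ng they went from 0 to 2 at 10 ng and from 87 to 109 at 0.5 ng, and stayed at 29 at 1 ng. Across all genes, deviations of WT libraries and their same-numbered GFAP-IL6 libraries correlated by 0.0361 to 0.189 at 50 ng, with 2 of 4 pairs above 0.1. Same-numbered libraries at 50 and 10 ng correlated by 0.0772 to 0.237 in WT (2 of 4 above 0.1). In GFAP-IL6 they correlated by 0.0516 to 0.510 (3 of 4). The numbers were not taken as pairs across genotypes, but an effect of the number shared by both genotypes was not tested. Between 50 and 10 ng, 7 of 8 libraries correlated best with their own number. Depth limits the members most at 1 and 0.5 ng, where *Syp* had as few as 13 and 17 counts in a library.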
